A study of Rattus norvegicus with 28 samples.

Results

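The neurotrophins brain-derived neurotrophic factor (Bdnf) and neurotrophin-3 (Ntf3), the related growth factor Gdnf, and the receptors Ntrk2, Ntrk3, Ngfr, Sort1 and Gfra1 were followed in the hippocampus of injured and antidepressant-treated rats. These 8 of 15637 named rat genes on the gene expression array were chosen by symbol, and every probe whose RefSeq accession mapped to one of them was taken, which gave 12 of 30367 probes. The RNA came from 14 adult male Sprague-Dawley rats, 1 array per rat, with tissue taken 24 h after lateral fluid-percussion brain injury of severe grade (TBI) or after sham injury. The groups were Sham (2 rats), TBI (3 rats), and injured rats given imipramine, Prozac (fluoxetine) or Zoloft (sertraline) 1 h after injury (TBI+Imipramine, TBI+Prozac and TBI+Zoloft, 3 rats each). The study's methods name a vehicle for rats not given an antidepressant. No uninjured rat received a drug, so that each drug was seen only on top of injury. The comparisons ask how injury moved the neurotrophin system and whether any of the 3 drugs moved it in injured tissue.

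Only Gfra1 passed the test in any comparison. Gfra1 was higher in TBI than in Sham, 3.1-fold or 1.63 on the log2 scale and 0.67 with another background correction, and its dim Sham signal limits that size. It lay at a similar level in all 4 injured groups. Bdnf, Ntf3, the Trk receptors, Ngfr and Sort1 did not pass the test against Sham or against TBI, and Gdnf was not above background in any rat. A single treated rat, TBI+Zoloft replicate 3, had the highest Bdnf and the lowest Ntf3 of the 14 rats. It also had the highest values of 8 of 10 measured genes that neuronal activity or Trk signalling induces. On its array 12.4% of all probes that passed a filter on dim signals were likewise highest. The rat was singled out after its values were seen, and its array was the least like the others among injured rats.

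As background, neurotrophins are secreted proteins that keep neurons alive and adjust the strength of their synapses. BDNF binds the kinase TrkB (Ntrk2), neurotrophin-3 binds TrkC (Ntrk3), and the p75 receptor (Ngfr) binds all neurotrophins and, with sortilin (Sort1), their uncleaved precursors. GDNF acts through another pair, the anchored receptor GFRα1 (Gfra1) and the kinase Ret, and BDNF in the hippocampus is widely studied as a target of antidepressants.

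Values are on a log2 scale, on which 0 is the array's own 75th percentile, taken over probes whose signal exceeded background. They are relative brightness, so that a level is compared between rats for 1 probe and never between probes. Differences were tested with limma in 1 fit over all 17322 probes that passed a filter on dim signals, with Benjamini-Hochberg adjustment over all of them and a threshold of 0.05. Where a gene had several probes, the lead probe was the one above background on the most arrays and then the brightest. In total 11 of the 12 probes, standing for 7 of the 8 genes, passed the filter, and none was saturated. Since tissue was measured in bulk, fewer cells of a type and less RNA per cell cannot be told apart. The p-values measure the spread between these rats.

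Signal exceeded background for 14676 to 18196 of the 30367 probes, least often in TBI replicate 1. That array also held the lowest of the 14 values for 36.9% of the probes. Among injured rats, TBI+Zoloft replicate 3 was the least like the others, with a median correlation of 0.973 to the 13 remaining arrays where the rest of the injured had 0.985 to 0.99. Both Sham arrays lay alone on 1 slide, so that slide and injury cannot be told apart. The TBI arrays shared a second slide with TBI+Prozac replicate 1, and the remaining drug arrays lay on another. The tissue label was checked against markers of hippocampal principal cells: Neurod6, Neurod2, Wfs1, Bcl11b and Zbtb20 were above background on all 14 arrays, and the probe of Prox1, a marker of dentate granule cells, on none.

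Gfra1 encodes the cell-surface receptor that hands GDNF to Ret. The 250 bases before its RefSeq start, on the minus strand of chromosome 1 (GRCr8 chr1:267555812-267556061), are shown because it was the gene that passed the test. The fourth of 6 such windows of Bdnf, the one that held the letters in capitals, on the plus strand of chromosome 3 (GRCr8 chr3:116637608-116637857), is shown beside it because Bdnf stood out in the rat described below together with genes that neuronal activity induces. Capitals mark the letters CGTCA, the reverse complement of TGACG, the core of a cAMP response element.

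Gfra1: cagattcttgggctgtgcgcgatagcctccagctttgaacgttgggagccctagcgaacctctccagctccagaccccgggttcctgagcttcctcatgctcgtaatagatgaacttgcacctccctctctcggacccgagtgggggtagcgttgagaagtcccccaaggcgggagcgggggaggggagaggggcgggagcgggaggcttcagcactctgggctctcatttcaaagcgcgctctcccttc

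Bdnf window 4: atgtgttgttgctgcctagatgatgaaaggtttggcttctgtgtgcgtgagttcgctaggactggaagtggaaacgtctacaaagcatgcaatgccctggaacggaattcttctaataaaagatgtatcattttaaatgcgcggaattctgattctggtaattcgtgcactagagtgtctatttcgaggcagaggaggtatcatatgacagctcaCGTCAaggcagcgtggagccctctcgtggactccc

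The letters TGACG or CGTCA stood 35 to 31 bases before the start in that Bdnf window and in none of the other 5 windows of Bdnf. They occur in 18.2% of 33469 windows of the same length over all genes, so that a match is common. Which of the Bdnf windows goes with the measured Bdnf signal was not tested. The window of Gfra1 held none of the 5 letter patterns searched on both strands, which were the full element TGACGTCA (in 1.59% of all windows), TGACG, the AP-1 pattern TGANTCA (6.34%), the E-box CACGTG (5.59%) and the STAT pattern TTCNNNGAA (7.67%). An AP-1 pattern lay in the third Bdnf window and a STAT pattern in the first.

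In the comparison of TBI with Sham, 1 of 7 tested members passed the test, beside 16.6% of all kept probes. The 2 Sham rats had log2 values of -5.47 and -5.22 for Gfra1. The 3 TBI rats had -4.19, -3.41 and -3.55. Every TBI value lay above both Sham values, and 42.3% of all kept probes likewise showed no overlap between these groups in one direction or the other. The difference was 1.63 ± 0.27 (SE) on the log2 scale, a 3.1-fold rise, with an adjusted p of 0.0022 in limma. Sham replicate 2 was not above background, so that Gfra1 was measured above background on 13 of 14 arrays, and the probe passed the filter through the injured groups, where it was high.

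The treated rats had Gfra1 values in the same range as untreated injured rats. TBI+Imipramine rats lay at -3.77, -3.49 and -3.48, TBI+Prozac rats at -3.61, -3.78 and -3.50, and TBI+Zoloft rats at -3.87, -3.81 and -3.02. The highest of the 14 values was again that of TBI+Zoloft replicate 3. All 12 injured rats lay above both Sham rats, as did 12.1% of all kept probes. Against the same Sham rats, Gfra1 was higher by 1.77 (adjusted p = 0.001, limma) in TBI+Imipramine, by 1.72 (adjusted p = 0.0025) in TBI+Prozac and by 1.78 (adjusted p = 0.0034) in TBI+Zoloft. In each of these 3 comparisons Gfra1 was the 1 member of 7 that passed, beside 23.4%, 14.9% and 5.95% of all kept probes. These 3 and the comparison of TBI with Sham share the Sham arrays.

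Against TBI, the Gfra1 difference was 0.14 with imipramine (95% interval -0.39 to 0.66), 0.09 with Prozac (-0.44 to 0.61) and 0.15 with Zoloft (-0.38 to 0.67). The median of all kept probes itself shifted by 0.20 with imipramine and by 0.15 with Prozac against TBI, so that relative to that median Gfra1 lay at -0.06 in both. Markers of cell types were read beside Gfra1. Gfap, the intermediate filament of reactive astrocytes, rose in TBI by 1.88 (adjusted p = 0.014, limma), and it was the 1 of 6 astrocyte markers that passed the test. The summed astrocyte markers ran from 5.30 to 5.32 in Sham and from 4.79 to 5.52 in TBI on the log2 scale. The summed markers of microglia and macrophages ran from 1.69 to 2.02 in Sham and from 2.33 to 2.49 in TBI. In TBI 3 of 8 passed the test, all higher (Itgam, Cd68 and Msr1), beside 8.3% of all kept probes that were higher. Of the 8 markers, 7 were above background on every array. Msr1 was dim in Sham, with a mean of -8.14, and above background in all 3 TBI rats. Msr1 thus passed the filter through the injured groups, where it was high, and its rise was at least 2.05. The summed markers of endothelium and pericytes ran from 0.83 to 1.14 in Sham and from 1.25 to 1.83 in the injured groups, without overlap, and 1 of 6 (Cldn5) passed in TBI against Sham. Those of meningeal and perivascular fibroblasts ran from -0.88 to -0.75 in Sham and from -0.46 to 0.40 in TBI, with 0 of 5 past the test in limma. In TBI+Zoloft the sums of microglia (2.00 to 2.47) and of fibroblasts (-1.39 to 0.55) overlapped Sham. In TBI+Imipramine and TBI+Prozac both sums lay above Sham. Of the astrocyte markers 1 passed against Sham in TBI+Imipramine and 0 in TBI+Prozac and in TBI+Zoloft. The part of these cell types in the Gfra1 result was not tested. With a background correction that adds an offset (normexp), the difference between TBI and Sham was 0.67 (adjusted p = 0.019, limma). By the t-test of the study's methods with Benjamini-Hochberg adjustment Gfra1 did not pass in TBI (adjusted p = 0.21), TBI+Prozac (0.12) or TBI+Zoloft (0.29) against Sham, and it passed in TBI+Imipramine.

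**Figure D1:**
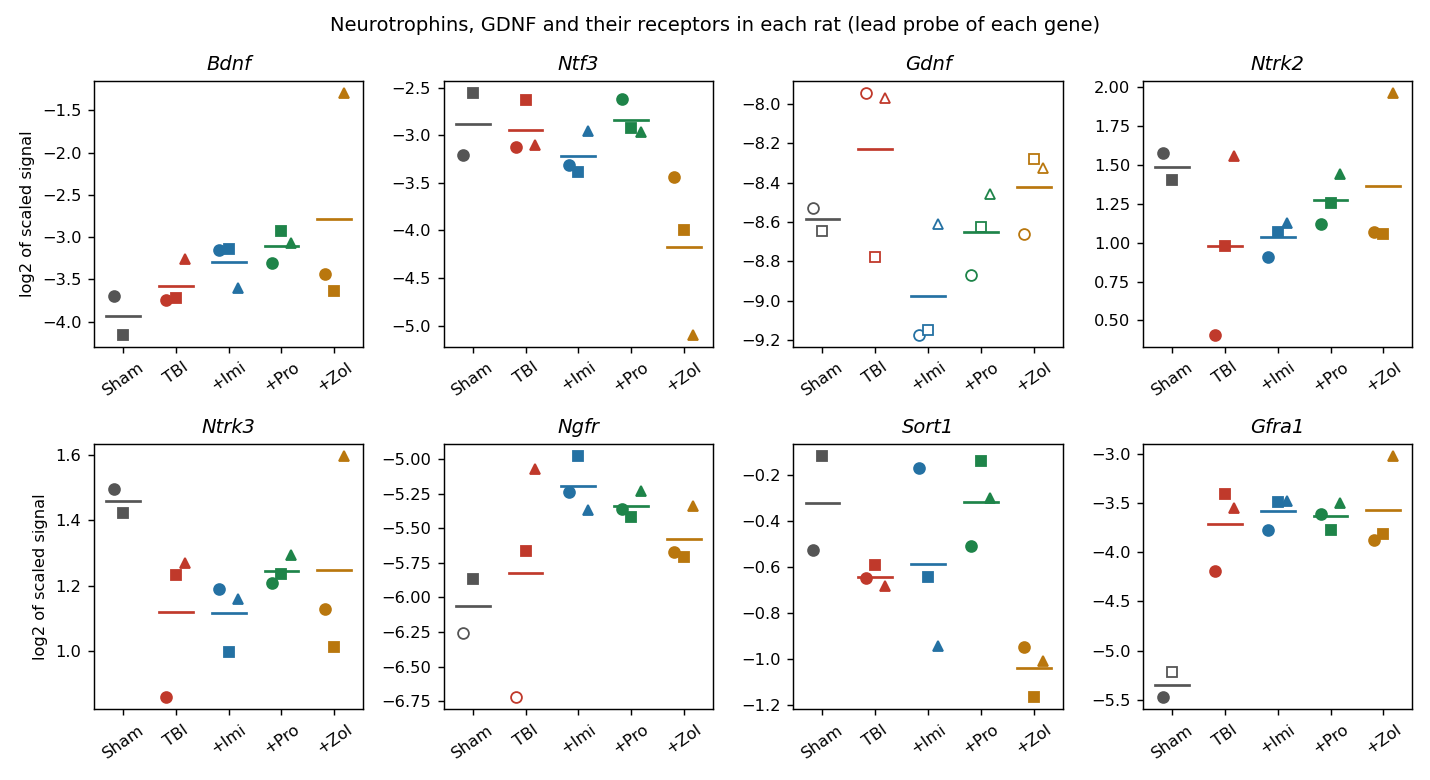
Log2 scaled signal of the lead probe of each of the 8 genes in the 14 rats (circle, square and triangle are replicates 1, 2 and 3; horizontal lines are group means; open symbols were not above background). Gfra1 lies between -4.19 and -3.02 in all injured rats and below -5.2 in both Sham rats, and 1 TBI+Zoloft rat stands apart for Bdnf at -1.29 and for Ntf3 at -5.09.

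The genes whose pattern was most like that of Gfra1 over the 14 arrays, among 8700 named genes above background on all of them, were Tmbim1 (Pearson's r = 0.97), Pdlim4 (r = 0.966) and Tnfrsf12a (r = 0.961), the last a receptor of the tumour necrosis factor family. Within the 12 injured rats, without the step from Sham, r was 0.789, 0.787 and 0.736. These are descriptions over arrays that share groups. All 3 genes were higher in TBI than in Sham, with log2 differences of 2.16, 1.45 and 3.54.

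Bdnf, the ligand of TrkB, was measured by 1 probe printed on 10 spots and was above background on every array. Its log2 values were -3.70 and -4.15 in Sham and -3.74, -3.73 and -3.26 in TBI. These groups overlapped, and the difference of 0.35 ± 0.52 (SE) did not pass the test (adjusted p = 0.7, limma). TBI+Imipramine rats had -3.15, -3.14 and -3.60 and TBI+Prozac rats -3.31, -2.93 and -3.06, and every rat of both groups lay above both Sham rats. The order of the Bdnf group means ran from TBI+Zoloft through TBI+Prozac, TBI+Imipramine and TBI down to Sham, and every neighbouring pair in that order overlapped. Against Sham, Bdnf differed by 0.63 with imipramine (adjusted p = 0.41) and by 0.83 with Prozac (adjusted p = 0.32), which did not pass the test in limma. When TBI+Zoloft replicate 3 was left out of the fit, which lowers the spread shared by all groups, the Prozac value of 0.83 had an adjusted p of 0.023.

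The 3 TBI+Zoloft rats had Bdnf at -3.44, -3.64 and -1.29. The first 2 lay close to the lower end of the other treated rats, which ran from -3.60 to -2.93, and the third was 3.1 times as bright as the next highest of the 14 rats. The TBI+Zoloft difference from TBI was 0.79 ± 0.47 (adjusted p = 0.47, limma) with this rat and 0.04 without it. From Sham it was 1.14 (adjusted p = 0.22) with the rat and 0.39 without it. The mean of Bdnf in TBI+Zoloft thus rested on 1 of 3 rats.

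Ntf3, the ligand of TrkC, was above background on every array. Its values were -3.21 and -2.56 in Sham, -3.12, -2.63 and -3.10 in TBI, -3.31, -3.38 and -2.95 in TBI+Imipramine, and -2.62, -2.93 and -2.97 in TBI+Prozac. These 4 groups overlapped one another, with means in the order TBI+Prozac, Sham, TBI and TBI+Imipramine. The 3 TBI+Zoloft rats lay below every other rat, at -3.44, -3.99 and -5.09. The gap between the highest TBI+Zoloft rat and the lowest of the others was small, at -3.44 against -3.38. The difference of TBI+Zoloft from TBI was -1.23 ± 0.34 (SE) on the log2 scale with an adjusted p of 0.097 in limma, and that from Sham was -1.29 with an adjusted p of 0.068. With slide as a random block the values were -1.25 (adjusted p = 0.043) and -1.31 (adjusted p = 0.042), which passed. The estimated correlation within slides was -0.058, below 0, so that this block made no allowance for a level shared within a slide. With slide as a fixed block, where a single TBI+Prozac array links the drug slide to the TBI slide, the difference from TBI was -0.90 (adjusted p = 1). An F test for any difference among the 3 drugs gave an adjusted p of 0.081, with 3.18% of all kept probes past the threshold and 0 of 7 members.

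Without TBI+Zoloft replicate 3, the Ntf3 difference was -0.77 against TBI (adjusted p = 0.21) and -0.83 against Sham (adjusted p = 0.11). The summed markers of hippocampal principal cells ran from 2.03 to 2.15 on the log2 scale in TBI+Zoloft and from 2.27 to 2.67 in the other groups, so that the same 3 rats were lowest. The summed general neuronal markers overlapped, at 3.28 to 3.67 in TBI+Zoloft and 3.15 to 3.77 elsewhere. Neurod6, a transcription factor of pyramidal neurons, had a difference of -0.65 between TBI+Zoloft and Sham (adjusted p = 0.012, limma) and was the 1 of 5 kept markers of the list that passed. The part of these cells in the Ntf3 values was not tested. Under another scaling, to the 75th percentile of all probes, Ntf3 passed the test against Sham at -1.33 (adjusted p = 0.048).

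Gdnf, the ligand of the receptor pair of Gfra1 and Ret, was above background on 0 of 14 arrays. Its probe was not kept and no level or difference is given.

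Ntrk2 encodes TrkB, which exists with a kinase domain and in shortened forms, and 3 probes measured it, the second annotated to another transcript than the rest. The lead probe had log2 values of 1.58 and 1.40 in Sham and 0.41, 0.98 and 1.56 in TBI. TBI replicate 3 lay between the Sham rats and the other TBI rats lay below them. The differences of the 3 probes between TBI and Sham were -0.51, -0.52 and -0.68, with adjusted p of 0.3, 0.099 and 0.2 in limma, so that none passed the test although all had the same direction. The order of the lead probe ran from Sham through TBI+Zoloft, TBI+Prozac and TBI+Imipramine to TBI, and every neighbouring pair overlapped. Without TBI replicate 1, the difference of the lead probe from Sham was -0.22.

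Against TBI, Ntrk2 was nominally higher with Prozac by all 3 probes. The second probe read -0.04, -0.22 and -0.14 in TBI+Prozac and -1.04, -0.75 and -0.27 in TBI, with no overlap. The difference of that probe was 0.55 (adjusted p = 0.36, limma), and those of the other probes were 0.29 and 0.50. Without TBI replicate 1 the lead-probe difference was 0.0037, so that its 0.29 rested on that array. In this comparison 0 of 7 members passed the test and 0.00577% of all kept probes did, which is 1 probe. Relative to the median of all kept probes the second probe lay at 0.41. With Zoloft the 3 differences from TBI were 0.38, 0.13 and 0.18, and TBI+Zoloft replicate 3 held the highest lead-probe value of all rats, 1.96.

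Ntrk3 encodes TrkC, and its 2 probes were annotated to different transcripts. The lead probe had values of 1.496 and 1.422 in Sham and 0.86, 1.23 and 1.27 in TBI, without overlap. The order of the means ran from Sham through TBI+Zoloft, TBI+Prozac and TBI to TBI+Imipramine, and neighbouring groups overlapped. Among the 12 injured rats, 11 lay below both Sham rats and TBI+Zoloft replicate 3, at 1.60, lay above them. The difference between TBI and Sham was -0.34 ± 0.18 (adjusted p = 0.22, limma), and with normexp it was -0.57 and passed (adjusted p = 0.038). TBI replicate 1, at 0.86, was the lowest of the 14 rats. With single arrays left out the difference ran from -0.41 to -0.21 and did not pass. The second probe showed 0.02 in the same comparison, with Sham rats at 0.64 and 0.75 and TBI rats at 0.57, 0.88 and 0.70. Probes of this gene therefore did not give a common picture. With another scaling or with normexp the lead probe passed the test in TBI+Imipramine against Sham, where the difference was -0.34 under the main scaling (adjusted p = 0.19) and -0.59 when scaled to all probes (adjusted p = 0.015).

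**Figure D2:**
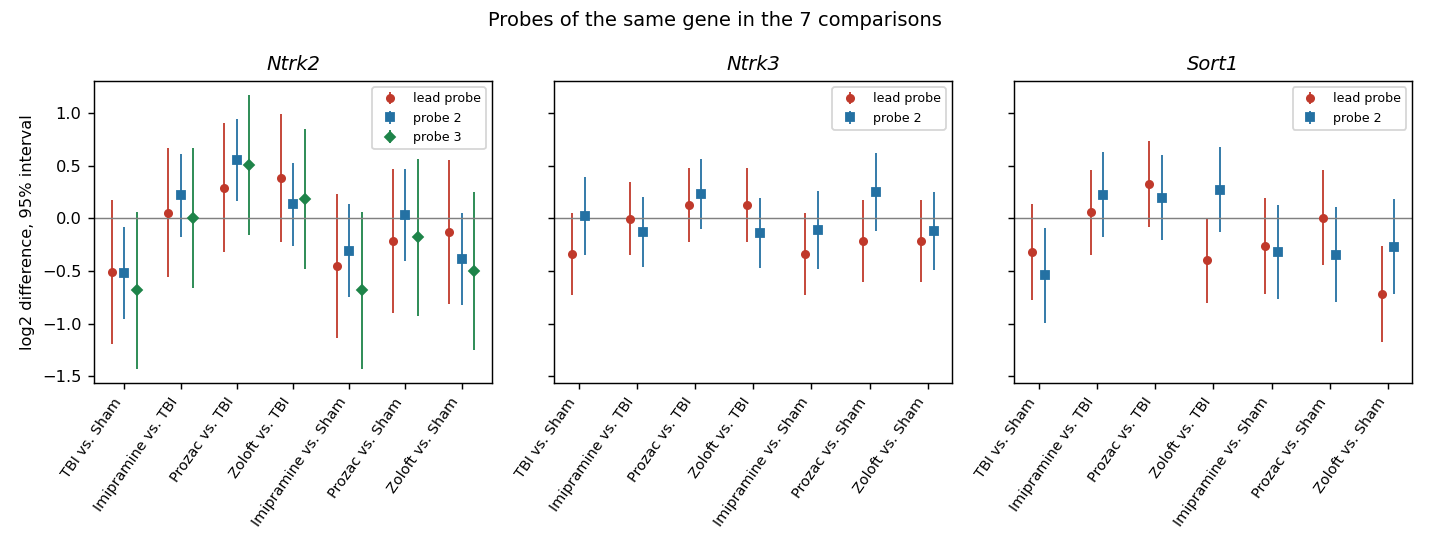
Log2 differences with 95% intervals for every kept probe of Ntrk2, Ntrk3 and Sort1 in the 7 comparisons (x axis, first group minus second). The 3 probes of Ntrk2 lie below 0 in TBI vs. Sham, and the probes of Sort1 lie on opposite sides of 0 for Zoloft vs. TBI, at -0.40 and 0.27.

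Ngfr, the p75 receptor, was dim. It was above background on 12 of 14 arrays and not on Sham replicate 1 or TBI replicate 1, so that it passed the filter through the drug groups, where it was high, and its differences from Sham rest on a signal near background. Its values were -6.26 and -5.86 in Sham and -6.72, -5.66 and -5.07 in TBI, the widest spread of any tested member within TBI. TBI+Imipramine rats had -5.24, -4.97 and -5.37, above both Sham rats. The difference of TBI+Imipramine from Sham was 0.87 ± 0.35 (adjusted p = 0.095, limma), that of TBI+Prozac was 0.73 (adjusted p = 0.19) and that of TBI+Zoloft was 0.49 (adjusted p = 0.45). Relative to the shift of all probes, the first 2 were 0.68 and 0.58. Without TBI replicate 1 in the fit, the adjusted p of the imipramine and Prozac values were 0.01 and 0.032. With normexp the Prozac value was -0.01, on the other side of 0. Schwann cells and cholinergic neurons also carry p75. Of their 6 markers 3, among them Prx and Chat, were above background on 0 arrays. The summed level of the 3 kept markers ran from -0.11 to 0.10 in Sham and from 0.31 to 0.66 in TBI+Imipramine, and its part in the Ngfr values was not tested.

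Sort1, sortilin, was measured by 2 probes annotated to the same transcript. The lead probe read -0.53 and -0.12 in Sham, -0.65, -0.59 and -0.69 in TBI, -0.17, -0.64 and -0.94 in TBI+Imipramine, -0.51, -0.14 and -0.30 in TBI+Prozac, and -0.95, -1.17 and -1.01 in TBI+Zoloft. The 3 TBI+Zoloft rats were the lowest of the 14, and the highest of them lay next to TBI+Imipramine replicate 3. The difference of TBI+Zoloft from Sham was -0.72 ± 0.21 (adjusted p = 0.064, limma) and that from TBI was -0.40 (adjusted p = 0.34). The F test among drugs gave an adjusted p of 0.088. The second probe differed in direction from TBI, with 0.27, and gave -0.27 against Sham (adjusted p = 0.48), so that the low values in TBI+Zoloft were seen by 1 of 2 probes. Leaving out TBI+Zoloft replicate 3 gave -0.73 for the lead probe against Sham (adjusted p = 0.098). The lead probe passed against Sham in limma with quantile normalization (adjusted p = 0.045), when scaled to all probes (0.035) and with the series-table values (0.034). It also passed with slide as a random block (0.044), whose within-slide correlation was -0.058, and without TBI+Imipramine replicate 1 (0.038) or 3 (0.045).

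In the comparisons with TBI, 0 of 7 members passed the test with imipramine, Prozac or Zoloft, beside 2.85%, 0.00577% and 1.38% of all kept probes. At an unadjusted p under 0.05 the counts were 0, 0 and 1 in limma, the last being Ntf3. By the t-test of the study's methods, unadjusted and with a fold limit, they were 0, 1 and 1, which was Sort1 in both cases. Its lead probe was higher with Prozac (0.325) and lower with Zoloft (-0.40). Groups did not overlap for 0, 1 and 2 of the 7 lead probes, beside 25.8%, 15.1% and 15.3% of all kept probes. Against Sham the same counts were 3 in TBI, 5 in TBI+Imipramine, 4 in TBI+Prozac and 5 in TBI+Zoloft, beside 42.3%, 59.6%, 52.4% and 38.3%. The median of the 7 members' log2 differences from TBI was 0.06 with imipramine, 0.29 with Prozac and 0.15 with Zoloft, beside 0.20, 0.15 and 0.01 over all kept probes. In TBI against Sham the members' median was -0.06, beside 0.0015 over all kept probes.

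**Figure D3:**
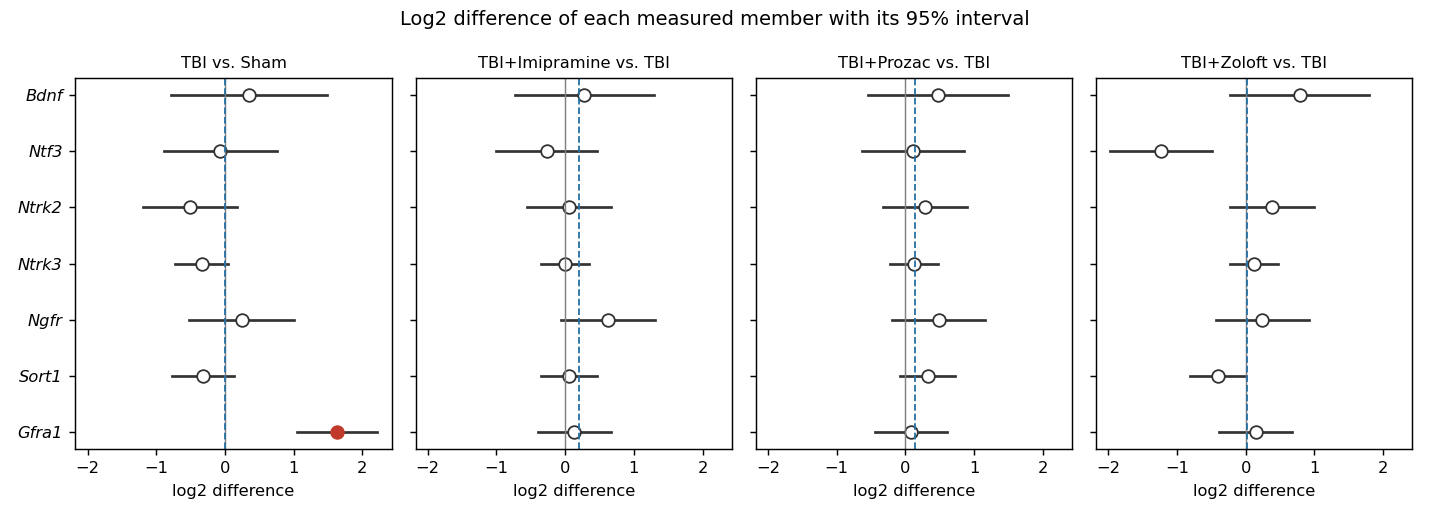
Log2 difference of the lead probe of the 7 tested members (points) with 95% intervals (bars) for TBI against Sham and for each drug against TBI; filled points passed the test and the dashed line is the median of all kept probes. Gfra1 in TBI vs. Sham, at 1.63, is the single filled point.

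The other genes of the pathway were read from lists chosen by function. In TBI against Sham 8.3% of all kept probes were higher and 8.32% lower. Of the GDNF family, 6 of 8 further genes were kept. In TBI against Sham 0 rose and 1 fell: Ncam1, an adhesion molecule that also binds GDNF with Gfra1, fell by 0.99 (adjusted p = 0.0098, limma). The list's median was -0.08, and 0.27 without TBI replicate 1. Ret, the kinase that signals for Gfra1, was at 0.64 in TBI against Sham (adjusted p = 0.23) and passed the test in TBI+Zoloft against Sham, at 1.27 (adjusted p = 0.047). Ret values in TBI+Zoloft were -2.66, -2.80 and -1.45, and without the third rat the difference was 0.85 (adjusted p = 0.055). Gfra2, the neurturin receptor, was at -0.16 in TBI against Sham and at 0.47 without TBI replicate 1.

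Among 11 kept sortilin relatives and p75 partners, 1 rose in TBI against Sham and 0 fell. It was Nradd, a p75-like membrane protein with a death domain, with a rise of 1.17 (adjusted p = 0.018, limma). In TBI+Zoloft against Sham 0 rose and 2 fell, which were Sorl1, a sorting receptor related to sortilin (-0.88, adjusted p = 0.035), and Rtn4r, the Nogo receptor that pairs with p75 (-0.60, adjusted p = 0.026), beside 1.8% of all kept probes that were lower. Without TBI+Zoloft replicate 3 the adjusted p of Sorl1 was 0.056 and Nradd passed at 1.32 (adjusted p = 0.016), which gave 1 higher and 1 lower. In TBI+Imipramine and in TBI+Prozac against Sham 2 of the 11 genes were higher, beside 19.8% and 11.7% of all kept probes. In both comparisons 0 were lower, beside 3.6% and 3.16%.

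Among 12 kept genes of neurotrophin processing and secretion, 4 passed the test in TBI against Sham, 3 higher and 1 lower, beside 16.6% of all kept probes. The median was -0.12 over the list and 0.0015 over all kept probes. Without TBI replicate 1 the count that passed was 3, with a list median of 0.05. Timp1, an inhibitor of metalloproteinases, rose by 5.04 (adjusted p = 2.8e-05, limma). Mmp9, a metalloproteinase that can cleave proBDNF, rose by 2.00 (adjusted p = 0.049), and without TBI replicate 1 its adjusted p was 0.11. It kept its call in 5 of 24 alternatives, which include fits without single arrays, and its lowest difference among them was 0.52. Plg, the precursor of plasmin, which cleaves proBDNF, fell by 1.42. Furin, the intracellular convertase, passed the test in TBI+Imipramine against Sham, at 1.05.

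Of 15 kept adaptors and signalling proteins of Trk and Ret, Shc1, an adaptor of Trk receptors, rose in TBI by 0.99 and Sos1, an activator of Ras, fell by 0.60. Without TBI replicate 1 the counts for this list were 3 higher and 0 lower. Among 10 further neurotrophic factors and receptors, Fgf2, a fibroblast growth factor, rose by 1.27 and Il6st, the shared receptor subunit for CNTF and LIF, rose by 0.78. Of 10 kept regulators of Bdnf transcription 0 passed the test in TBI against Sham in limma, and 1, Crem, passed without TBI+Zoloft replicate 3 (0.64, adjusted p = 0.033). In TBI+Imipramine against Sham 3 of them were higher, among them Crem (0.93) and Creb1 (0.70), beside 19.8% of all kept probes that were higher and a median of 0.18 over all of them. With normexp, Creb1 was at -0.15 in that comparison. No gene of these lists passed the test in any drug group against TBI.

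Of 10 kept genes induced by Trk signalling or neuronal activity, 1 passed the test in TBI against Sham: Nr4a1, an immediate early nuclear receptor, fell by 0.83. Without TBI+Zoloft replicate 3 in the fit 3 passed, all lower, with Arc at -0.86 (adjusted p = 0.032, limma) and Egr1 at -1.001 (adjusted p = 0.013) added. In TBI+Zoloft against TBI 0 passed, with a median of 0.50 over the list beside 0.01 over all kept probes. Without TBI+Zoloft replicate 3 the median was -0.01. On that array 8 of the 10 genes had their highest value of the 14 rats, beside 12.4% of all kept probes. The rat was singled out after its values were seen, so that this is a description with no test.

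The dendritic transcript Arc was at 2.07 in this rat and between -1.26 and 0.29 in the other 13. Nptx2, a secreted synaptic pentraxin, was at -0.25 against -3.27 to -2.45, and Fos, an immediate early transcription factor, at 0.04 against -3.51 to -0.59. Vgf, a secreted peptide precursor that BDNF induces, was at 2.89 against 0.93 to 1.76. In Egr1, Homer1, Dusp6 and Spry2 the same rat was also highest. Against the mean of the other TBI+Zoloft rats, Arc was 7.85-fold, Nptx2 6.57-fold and Fos 5.08-fold higher. By their lead probes, Bdnf, Ntrk2, Ntrk3 and Gfra1 were highest and Ntf3 was lowest in this rat, beside 12.4% and 13.1% of all kept probes that were highest or lowest on its array. The second probes of Ntrk2 and Ntrk3 were highest in TBI+Prozac replicate 1. Markers of other cells also lay at an extreme on this array, with 4 of 8 microglia, 3 of 5 fibroblast and 3 of 8 oligodendrocyte markers lowest and 3 of 6 endothelial markers highest, as were 5 of 10 regulators of Bdnf transcription. The part of the rat's state, its tissue or its array in these values was not tested.

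**Figure D4:**
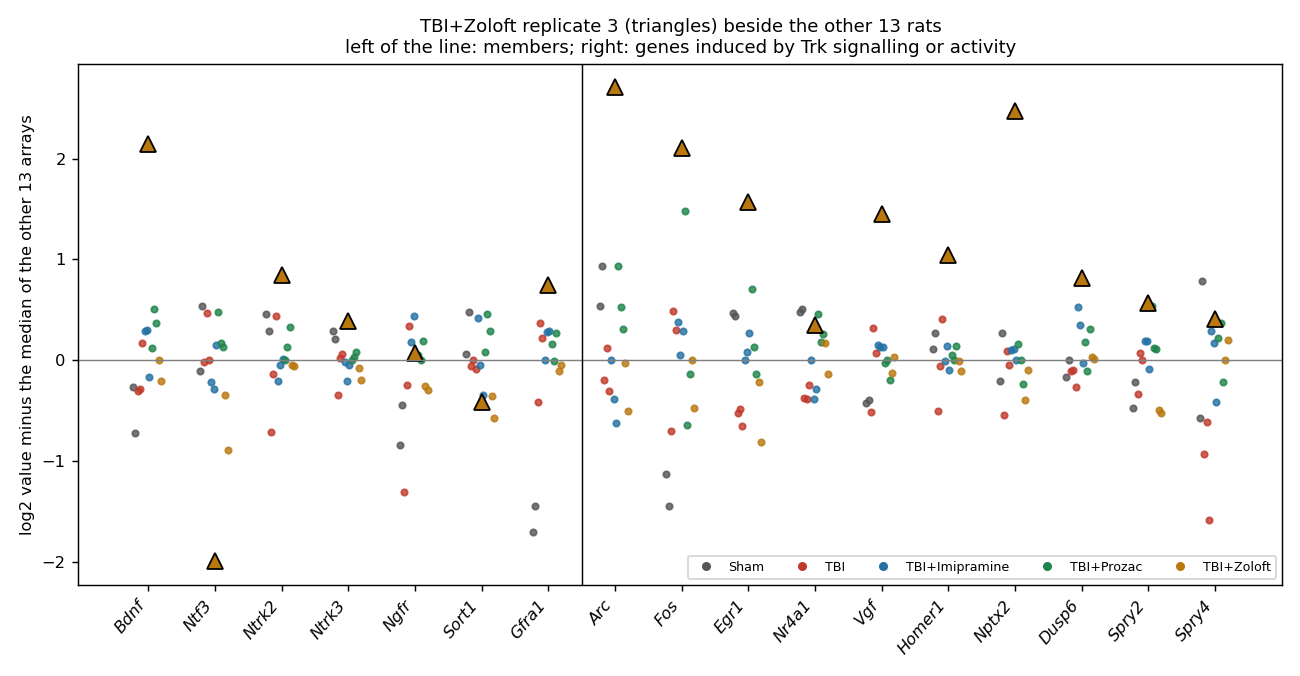
Log2 value of each gene minus the median of the 13 other arrays, for the 7 tested members (left of the line) and 10 genes that Trk signalling or neuronal activity induces (right); triangles are TBI+Zoloft replicate 3 and small points are the other 13 rats, coloured by group. The triangle is the highest point for Bdnf and for 8 of the 10 induced genes and the lowest for Ntf3.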

How the data were processed

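Hippocampal RNA from 14 rats was measured on Agilent arrays with 1 colour. The authors' deposited scanner files hold spot intensity on a linear scale from Agilent Feature Extraction and 0 or 1 quality flags, and a deposited series table holds their scaled intensity. Control and flagged spots were dropped, and processed signals were averaged over the spots of each probe, which was above background where more than 0.5 of its spots were. Scaling followed the study's methods (75th percentile, here over probes above background), and log2 was then computed from the deposited intensity. A probe was kept if all arrays of any group had it above background. The tests were limma's lmFit and eBayes (version 3.58.1, R 4.3.3), with no block. For the normexp alternative (offset 50) the median spot signal was used. RefSeq accessions gave GRCr8 symbols for 18643 of 30367 probes, and promoter windows are those of RefSeq. The 8 members and all lists were chosen with earlier results of these data known. All members were named with every probe. List genes were named where the lead probe passed the test, at most 6 per list and comparison, and the other genes named were chosen after their values were seen. On simulated data with these group sizes, 100 of 17251 probes were changed by 1 and 100 by 2 on the log2 scale between TBI and Sham. Of these changes 48% and 88% were recovered. In the data 16.6% of kept probes were called in that comparison, so that these rates need not carry over. The number of arrays limits the precision. The miRNA arrays were not used here. Some list genes are not reported here.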

Additional observations from a re-analysis of the deposited data

How the results depend on the processing

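The count of members called against TBI with imipramine was 0 under every alternative run. In TBI vs. Sham (1 called) it was 2 with normexp, with Ntrk3 added. In TBI+Imipramine vs. Sham (1 called) it was 2 with normexp, quantile normalization, the 75th percentile over all probes and the series-table values, with Ntrk3 added. In TBI+Zoloft vs. Sham (1 called) it was 3 with quantile normalization, the 75th percentile over all probes, the series-table values and slide as a random block, with Ntf3 and Sort1 added. Keeping only probes above background on all 14 arrays left 5 members without Gfra1 and gave 0 in all 4 comparisons with Sham. The methods' t-test at unadjusted p and its fold limit gave 4, 3 and 2 for TBI+Imipramine, TBI+Prozac and TBI+Zoloft vs. Sham and 1 for TBI+Prozac and for TBI+Zoloft vs. TBI. With Benjamini-Hochberg adjustment it gave 0 for TBI, TBI+Prozac and TBI+Zoloft vs. Sham. Slide as a random block, with a within-slide correlation of -0.058, gave 1 (Ntf3) for TBI+Zoloft vs. TBI. The causes of these changes were not tested, apart from Gfra1's loss under the stricter filter, which follows from its dim Sham array.

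Leaving out 1 replicate at a time gave 1 to 2 calls in TBI+Imipramine, in TBI+Prozac and in TBI+Zoloft vs. Sham, 1 in TBI vs. Sham, 0 in each drug vs. TBI and 0 to 1 in the F test among drugs, where Sort1 passed without TBI+Imipramine replicate 3 and Ntf3 without TBI+Zoloft replicate 1. Among the members' differences at least as large as their SE and those of called list genes, 3 changed sign: Creb1 in TBI+Imipramine vs. Sham with normexp (-0.15), Ngfr in TBI+Prozac vs. Sham with normexp (-0.0147), and Ntrk3 in TBI+Prozac vs. Sham as the mean of all kept probes (0.0184). Smaller differences were not followed under every alternative and some changed sign, such as TBI+Zoloft vs. TBI without TBI+Zoloft replicate 3 for Gfra1 (0.15 to -0.13) and Ntrk3 (0.13 to -0.05). Replicate numbers are shared by the groups but did not pair the rats, since same-numbered arrays had a median correlation of deviations of 0.005 and 3 of 14 arrays correlated best with their own number. With a replicate block 1 member was called in each comparison with Sham and 0 against TBI, as without it. Leaving single arrays out of the list genes was added after seeing the data. Depth is not defined for arrays, and Gdnf was limited by signal over background.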
